A study of Mus musculus with 4 samples.

Results

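The genes described here encode the enzymes and transporters that burn fatty acids in mitochondria and peroxisomes, together with the PPAR receptors and several of the genes that PPARs switch on. They were chosen by name for their known roles, 33 genes in all, with earlier results of these data known, and the rule itself uses no measured value. All 33 were found among the 55487 genes of the table, and all 33 were among the 17155 genes that passed the filter on low counts and were tested. They were measured by RNA-seq in mouse small intestinal (SI) organoids, which are epithelial cultures grown from intestinal crypts. Organoids of the mimic control group carried a lentivirus with a miRNA mimic control, and organoids of the miR-181a-5p mimic group carried a lentivirus with a miR-181a-5p mimic, which adds to the mature miRNA of the cells. Both groups grew in mouse IntestiCult medium with puromycin at 2 μg/ml to keep the transduced cells. Each group had 2 libraries, mimic control replicates 1 and 2 and miR-181a-5p mimic replicates 3 and 4.

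Nothing in the labels ties the libraries to separate transductions, cultures or mice, so the p-values measure the spread between these libraries, which may be technical. The time in culture, the strain and age of the mice and the promoter that drives the mimic are not in the labels either. Mature miRNAs are too short for these libraries, so how much miR-181a-5p the organoids held was not analysed here.

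Fatty acids are activated to acyl-CoA, carried into mitochondria on carnitine, and shortened there in repeated rounds of dehydrogenation, hydration, dehydrogenation and thiolysis. Very long and branched chains are shortened in peroxisomes by a parallel set of enzymes. PPARα, PPARδ and PPARγ are nuclear receptors that bind fatty acids, pair with RXR and switch on many of these genes. In the intestinal epithelium the pathway is known for fuelling stem cells and for handling dietary fat in enterocytes.

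The libraries held between 31104884 and 38111731 expected counts, which are RSEM's estimates of the reads from each gene. Within each group the libraries differed by more than counting noise (chi-square per degree of freedom 33.8 between the controls and 18.3 between the mimic libraries). Epithelial identity was checked with markers. All 20 enterocyte markers passed the filter, with a summed level of 10722 to 13314 CPM per library, where CPM are counts scaled to a common library size, whereas the 9 mesenchymal markers summed to between 5.10 and 8.65 CPM. Of the markers of other tissues, 4 of 9 mesenchymal, 3 of 7 adipocyte and 1 of 5 leukocyte markers were at 0 counts in all libraries, among them the adipocyte genes Adipoq, Lep and Fabp4.

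Of the 33 genes, 5 were lower and 0 were higher with the miR-181a-5p mimic in edgeR's quasi-likelihood test, at a Benjamini-Hochberg adjusted p under 0.05 over all genes tested. The 5 genes were Angptl4, Ppargc1a, Acaa1b, Eci2 and Acsl1, and they make up 15.2% of the list. Over all genes tested, 2.29% were lower and 1.28% were higher by the same rule, as 392 and 220 genes. With library totals in place of TMM factors these became 313 and 272, while 4 of the 33 genes were lower and 0 higher. None of the 33 genes passed when a fold change of at least 2 was also required, against a background of 1.47% lower and 0.589% higher. At an unadjusted p under 0.05 the list had 11 lower genes and 1 higher gene, and the background was 13.0% and 11.8%.

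The median log2 fold change (mimic over control) of the 33 genes was -0.16, and that of all genes tested was -0.012. For 22 genes it was below 0 and for 11 above 0. In 20 genes both mimic libraries lay below both controls, where 29.5% of all genes did so, and in 4 genes both lay above, where 28.9% did so. The remaining 9 genes overlapped between the groups. RNA from whole cultures was measured, so fewer cells of a type and less RNA per cell cannot be told apart in any of these values.

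**Figure D1:**
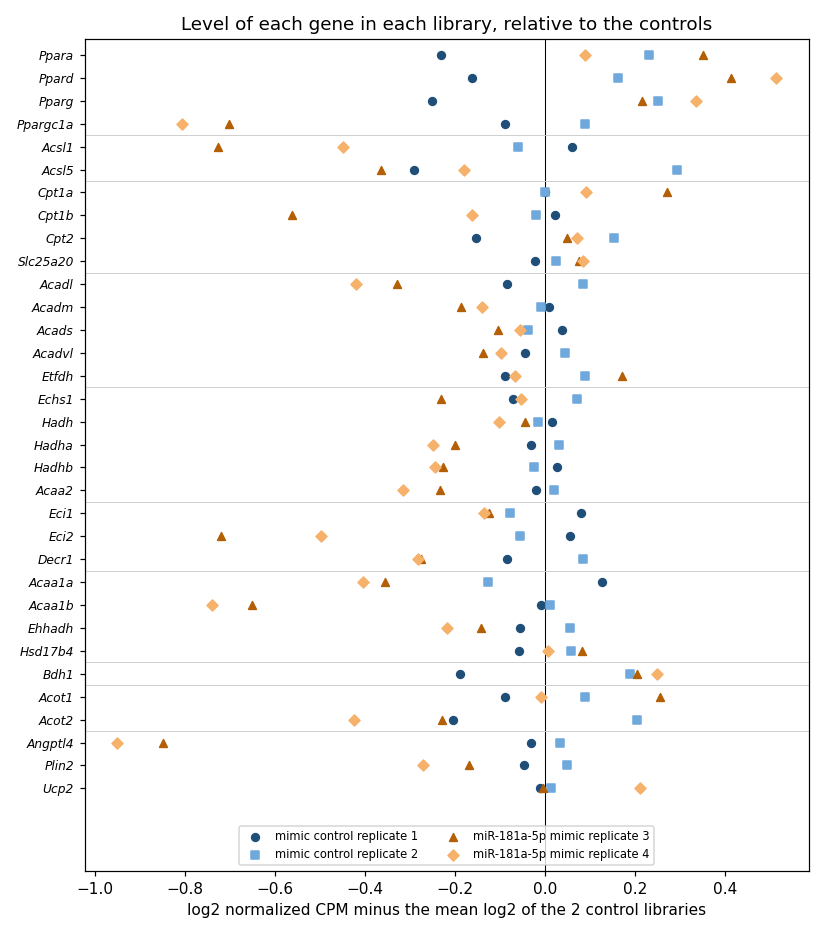
The level of each of the 33 genes in each library, as log2 normalized CPM minus the mean log2 of the control libraries, with the genes grouped by role. Ppargc1a, Acsl1, Eci2, Acaa1b and Angptl4 have both mimic libraries well to the left of both controls, and the control libraries stand far apart from each other for Acsl5, Ppara and Pparg.

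The controls differed from each other in some of these genes. Control replicate 2 was above control replicate 1 in 24 of 33 genes, and by at least 1.2-fold in 7 of them (Acsl5, Pparg, Ppara, Acot2, Bdh1, Ppard and Cpt2), while none was lower by the same margin. The largest ratio was 1.499, for Acsl5. Enterocyte markers differed between the same libraries, as in Apoa4, an apolipoprotein of enterocytes, with 394 CPM in control replicate 1 and 754 CPM in control replicate 2. The part of this difference in the results was not tested, and values without each library are given where they change a call.

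Among the receptors and their coactivator, the coactivator fell and no receptor passed the test. Ppargc1a encodes PGC-1α, a coactivator that works with PPARs and drives mitochondrial and oxidative genes. Ppargc1a measured 29.6 and 33.5 CPM in the controls and 19.3 and 18.0 CPM in the mimic libraries. It fell by 0.76 on the log2 scale (SE 0.12, adjusted p = 0.0259), to 59.2% of the control level. The groups did not overlap, and the decrease stayed past the threshold with any 1 library left out.

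Ppara, the receptor best known for switching on oxidation, measured 20.6 and 28.3 CPM in the controls and 30.7 and 25.7 CPM with the mimic (log2 fold change 0.21, SE 0.17, adjusted p = 0.494). Control replicate 2 lay between the mimic libraries. Ppard, the receptor for fatty acids that is expressed most widely, measured 14.7 and 18.5 CPM in the controls and 21.9 and 23.5 CPM with the mimic (log2 fold change 0.46, SE 0.15, adjusted p = 0.119). Both mimic libraries were above both controls, and Ppard was the 1 gene of the list that was higher at an unadjusted p under 0.05. Pparg, the receptor of adipocyte differentiation, which is also active in the gut epithelium, measured 18.5 and 26.1 CPM in the controls and 25.5 and 27.7 CPM with the mimic (log2 fold change 0.26, SE 0.17, adjusted p = 0.391). The groups overlapped. Without control replicate 2, the log2 fold changes were 0.63 for Ppard, 0.53 for Pparg and 0.42 for Bdh1, and these genes then passed the threshold. That fit leaves 1 control library, and many more genes over the whole table passed in it too.

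Of the 2 listed genes of fatty acid activation, Acsl1 fell and Acsl5 did not pass the test. Acsl1 encodes a long-chain acyl-CoA synthetase of the outer mitochondrial membrane and endoplasmic reticulum. It measured 148.5 and 136.6 CPM in the controls and 86.1 and 104.3 CPM with the mimic, a decrease to 66.8% of the control level (log2 fold change -0.58, SE 0.12, adjusted p = 0.0466). The groups did not overlap. The call was lost without mimic replicate 3 (log2 fold change -0.44) and without control replicate 1 (-0.53), and also with library totals in place of TMM factors. Acsl5, the synthetase typical of the small intestine, measured 557.5 and 835.6 CPM in the controls and 530.3 and 602.5 CPM with the mimic (log2 fold change -0.30, SE 0.19, adjusted p = 0.354). Control replicate 2 stood above the other 3 libraries, and without control replicate 1 Acsl5 passed the threshold (log2 fold change -0.57, adjusted p = 0.0293 by edgeR's quasi-likelihood test).

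None of the 4 genes of the carnitine shuttle passed the test. Cpt1a, the liver-type carnitine palmitoyltransferase that sets the rate of entry into mitochondria, measured 106.7 and 106.8 CPM in the controls and 128.8 and 113.6 CPM with the mimic (log2 fold change 0.18, SE 0.10, adjusted p = 0.300). Both mimic libraries were above both controls. Cpt1b, the muscle isoform, was low at 3.16 and 3.07 CPM in the controls and 2.11 and 2.78 CPM with the mimic (log2 fold change -0.34, SE 0.25, adjusted p = 0.425). Cpt2, which releases the acyl group inside the mitochondrion, and Slc25a20, the carnitine-acylcarnitine carrier, had log2 fold changes of 0.05 and 0.08.

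None of the 5 genes of acyl-CoA dehydrogenation passed. Acadl, the long-chain acyl-CoA dehydrogenase, had the largest difference of this step, with 153.8 and 173.0 CPM in the controls and 129.96 and 122.0 CPM with the mimic (log2 fold change -0.38, SE 0.10, adjusted p = 0.0854). The groups did not overlap, and without control replicate 1 it passed the threshold (log2 fold change -0.46, adjusted p = 0.0482 by edgeR's quasi-likelihood test). Acadm, Acads and Acadvl, the enzymes for medium, short and very long chains, had log2 fold changes of -0.16, -0.08 and -0.12, each with both mimic libraries below both controls. Etfdh, which passes the electrons on to ubiquinone, measured 0.05 on the same scale with overlapping groups.

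The 5 genes of the later mitochondrial steps had log2 fold changes between -0.27 and -0.07, and none passed. Acaa2, the mitochondrial thiolase, measured 142.6 and 146.6 CPM in the controls and 123.0 and 116.2 CPM with the mimic (log2 fold change -0.27, SE 0.09, adjusted p = 0.130). Hadha and Hadhb encode the α and β subunits of the trifunctional protein, which carries out the later steps of a round on long chains. Their log2 fold changes lay close together, at -0.22 (SE 0.09, adjusted p = 0.196) for Hadha and -0.24 (SE 0.09, adjusted p = 0.166) for Hadhb. In both genes, as in Acaa2, the mimic libraries were below the controls. The genes for the subunits lie head to head on chromosome 5, Hadha on the minus strand from 30118304 to 30155162 and Hadhb on the plus strand from 30155248 to 30184593 (GRCm38), with 85 bases between their annotated starts. Hadh, for short-chain hydroxyacyl-CoA, and Echs1, the short-chain hydratase, measured -0.07 and -0.14 on the log2 scale.

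Of the enzymes that handle the double bonds of unsaturated fatty acids, Eci2 fell. Eci2 encodes an enoyl-CoA isomerase found in peroxisomes and mitochondria. It measured 73.4 and 67.9 CPM in the controls and 42.9 and 50.002 CPM with the mimic, which was 65.8% of the control level (log2 fold change -0.60, SE 0.11, adjusted p = 0.0388). The groups did not overlap. The call was lost without mimic replicate 3 (log2 fold change -0.49) and without control replicate 1 (-0.55). Eci1, its mitochondrial relative, and Decr1, the dienoyl-CoA reductase, had log2 fold changes of -0.13 and -0.28, with both mimic libraries below both controls.

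Of the peroxisomal genes, Acaa1b fell. Acaa1a and Acaa1b encode near-identical peroxisomal thiolases. Acaa1b measured 37.1 and 37.7 CPM in the controls and 23.8 and 22.4 CPM with the mimic, a decrease to 61.8% of the control level (log2 fold change -0.69, SE 0.11, adjusted p = 0.0223). Acaa1a measured 68.3 and 57.3 CPM in the controls and 48.9 and 47.3 CPM with the mimic (log2 fold change -0.39, SE 0.12, adjusted p = 0.104). Neither gene had overlapping groups. Acaa1b lost its call without mimic replicate 4 (log2 fold change -0.65), and Acaa1a gained one without control replicate 2 (log2 fold change -0.50, adjusted p = 0.022 by edgeR's quasi-likelihood test).

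The split of reads between these thiolases is uncertain. Of the 100-base windows of the longest coding transcript, 22.6% of those of Acaa1b were also found in Acaa1a, so that reads of 100 bases from there fit either gene. Counted over every other gene, 30.5% of the windows of Acaa1b were shared, so a sum with Acaa1a does not cover all of them. Summed over both genes, the level was 105.4 and 94.97 CPM in the controls and 72.7 and 69.7 CPM with the mimic (log2 fold change -0.49, SE 0.10, adjusted p = 0.0463). Ehhadh, the peroxisomal bifunctional enzyme, and Hsd17b4, which catalyses the same steps on branched chains, had log2 fold changes of -0.18 and 0.04, and neither passed.

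Angptl4 had the largest difference of the 33 genes. It encodes a secreted inhibitor of lipoprotein lipase and is a PPAR target in many tissues. Angptl4 measured 25.1 and 26.3 CPM in the controls and 14.3 and 13.3 CPM with the mimic, a decrease to 53.6% of the control level (log2 fold change -0.90, SE 0.12, adjusted p = 0.015). The groups did not overlap, and the decrease stayed past the threshold with any 1 library left out. Plin2, a coat protein of lipid droplets, had a log2 fold change of -0.22 (SE 0.10, adjusted p = 0.221). Ucp2, a mitochondrial carrier of the uncoupling protein family, measured 458.9 and 466.7 CPM in the controls and 461.2 and 535.6 CPM with the mimic (log2 fold change 0.11, SE 0.11, adjusted p = 0.585).

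The thioesterases and the ketone body enzyme of the list did not pass. Acot1 and Acot2, neighbours on chromosome 12, encode the cytosolic and the mitochondrial acyl-CoA thioesterase. Acot1 measured 101.2 and 114.4 CPM in the controls and 128.3 and 107.0 CPM with the mimic (log2 fold change 0.13, SE 0.12, adjusted p = 0.552). Acot2 measured 25.3 and 33.6 CPM in the controls and 24.9 and 21.7 CPM with the mimic (log2 fold change -0.34, SE 0.16, adjusted p = 0.240). Of the windows of Acot2, 17.1% were also in Acot1, and the sum of both genes gave a log2 fold change of 0.04 (SE 0.12, adjusted p = 0.878). Acot1 had 16.5% of its windows in common with Acot2 and 21.9% with any other gene. Bdh1, which interconverts acetoacetate and β-hydroxybutyrate, measured 90.3 and 117.4 CPM in the controls and 118.6 and 122.4 CPM with the mimic (log2 fold change 0.21, SE 0.13, adjusted p = 0.351).

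**Figure D2:**
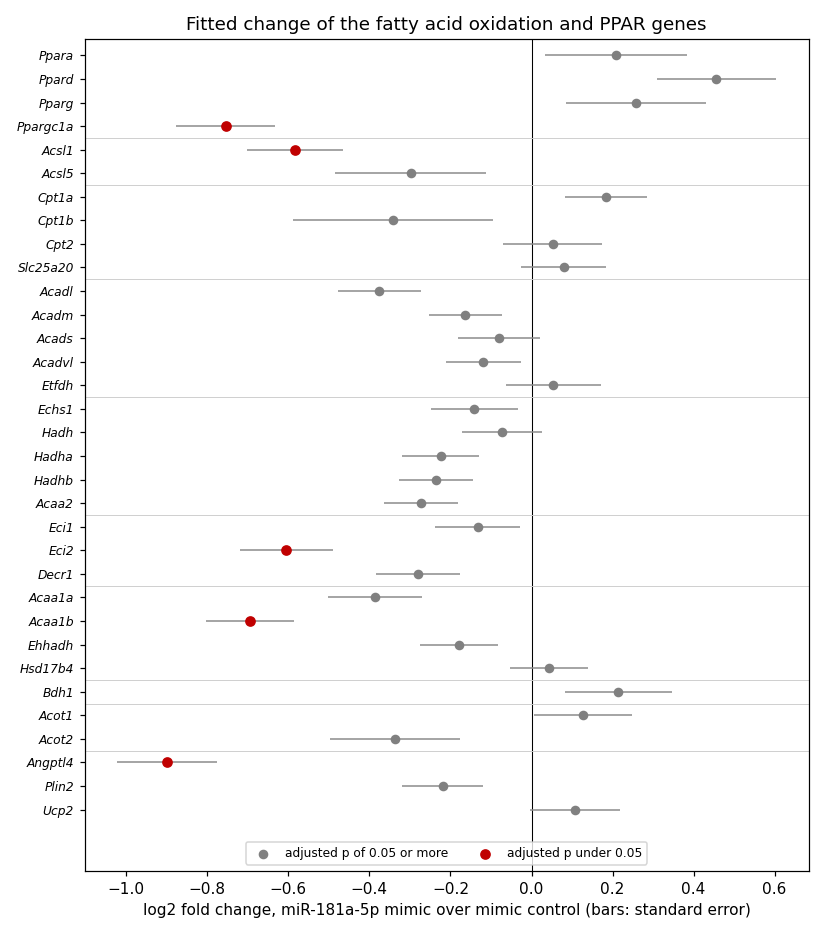
The fitted log2 fold change (mimic over control) of each of the 33 genes with its standard error, in the same order as the plot of levels by library. The genes past the threshold lie between -0.90 and -0.58, and Ppard at 0.46 is the farthest to the right.

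Leaving out 1 library at a time gave between 3 and 6 lower genes and between 0 and 3 higher genes of the list. The lowest count came without mimic replicate 3 (Angptl4, Ppargc1a and Acaa1b) and the highest without control replicate 2 (the same 5 genes and Acaa1a). The counts over all genes tested changed as well, with the most genes passing without control replicate 2. Angptl4, Ppargc1a, Acaa1b, Eci2 and Acsl1 stayed below 0 in every case. In limma's test on log2(TPM + 1), where TPM is the length-normalized abundance the authors deposited, none of the 33 genes passed, and the adjusted p was 0.0729 for Angptl4, 0.083 for Ppargc1a, 0.0891 for Acaa1b and 0.167 for Eci2 and for Acsl1. In that test 32 genes were higher and 43 lower over the whole table.

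**Figure D3:**
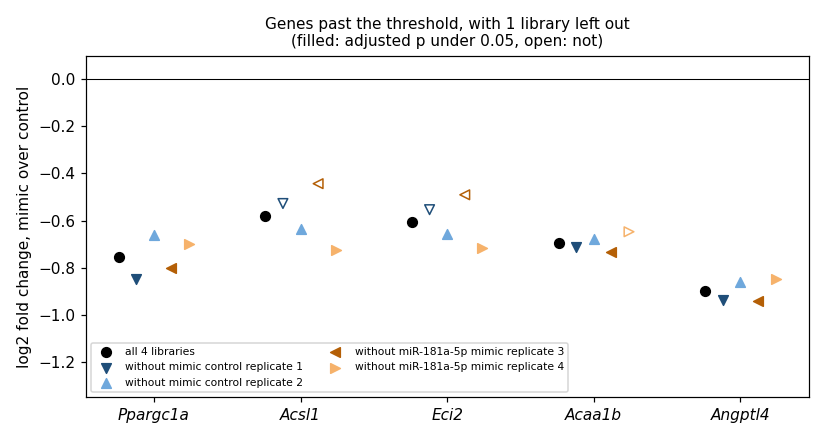
The log2 fold change of the genes past the threshold with all 4 libraries and with each library left out, filled where the adjusted p was under 0.05. Angptl4 and Ppargc1a are filled in every case, Acaa1b is open without mimic replicate 4, and Acsl1 and Eci2 are open without mimic replicate 3 and without control replicate 1.

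Other genes of the pathway and of PPAR signalling were counted in separate lists. By edgeR's test at an adjusted p under 0.05, 2.29% of all genes tested were lower and 1.28% were higher. Among 17 other genes of mitochondrial oxidation, 1 was lower (5.88%) and 0 were higher, with a median log2 fold change of -0.11. The lower gene was Acad10, a member of the acyl-CoA dehydrogenase family, with 24.05 and 22.01 CPM in the controls and 11.5 and 15.001 CPM with the mimic (log2 fold change -0.80, SE 0.16, adjusted p = 0.0452). Among 19 tested of 21 other peroxisomal genes, 2 were lower (10.5%) and 0 were higher, with a median of -0.17. Ephx2, the soluble epoxide hydrolase, measured 95.95 and 111.9 CPM in the controls and 48.7 and 52.7 CPM with the mimic (log2 fold change -1.04, SE 0.11, adjusted p = 0.00812). Phyh, which starts the α-oxidation of branched chains, measured 106.7 and 116.2 CPM in the controls and 55.9 and 71.1 CPM with the mimic (log2 fold change -0.81, SE 0.13, adjusted p = 0.0256). Acad10, Ephx2 and Phyh had no overlap between the groups. Without mimic replicate 3 the calls of Acad10 (log2 fold change -0.61) and Phyh (-0.64) were lost, and that of Acad10 also without control replicate 1 (-0.74), while Ephx2 passed with any 1 library left out.

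Among other ketone body genes, 2 were higher, and the rest of that list is not reported here. Oxct1, which starts the breakdown of ketone bodies, rose from 64.6 and 59.2 CPM to 90.4 and 102.2 CPM (log2 fold change 0.64, SE 0.11, adjusted p = 0.0288). Aacs, which activates acetoacetate in the cytosol for lipid synthesis, rose from 87.5 and 116.3 CPM to 164.0 and 186.1 CPM (log2 fold change 0.78, SE 0.15, adjusted p = 0.0379). Neither gene overlapped between the groups. Aacs stayed past the threshold with any 1 library left out, and Oxct1 lost its call without mimic replicate 4 (log2 fold change 0.55).

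Among 22 tested of 31 other PPAR target genes, 4 were lower (18.2%, against 2.29% of all genes tested) and 0 were higher. The median log2 fold change was -0.62. Pdk4, the kinase that holds back glucose oxidation, measured 7.88 and 3.84 CPM in the controls and 0.160 and 0.253 CPM with the mimic (log2 fold change -4.80, SE 0.53, adjusted p = 0.00869). Cyp4a10, a fatty acid ω-hydroxylase, rested on 52 counts over the controls and 4 over the mimic libraries, a ratio of 12.5 for equal depth (95% interval 4.62 to 47.8, for counting error alone), and its adjusted p was 0.0471. With a library left out it passed only without control replicate 2. G0s2, an inhibitor of adipose triglyceride lipase, measured 1.30 and 1.71 CPM in the controls and 0.255 and 0.365 CPM with the mimic (log2 fold change -2.24, SE 0.39, adjusted p = 0.0319). Slc27a2, a very long-chain acyl-CoA synthetase and fatty acid transporter, measured 149.7 and 107.1 CPM in the controls and 72.2 and 66.4 CPM with the mimic (log2 fold change -0.89, SE 0.16, adjusted p = 0.033). Pdk4 and Slc27a2 passed with any 1 library left out, and G0s2 did not without mimic replicate 3 (log2 fold change -2.02).

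Among 19 tested of 20 partners and cofactors of the PPARs, 1 was higher (5.26%, against 1.28% of all genes tested) and 0 were lower. The median log2 fold change was 0.21. The higher gene was Lpin1, a phosphatidate phosphatase that also acts as a coactivator with PGC-1α, with 25.5 and 30.3 CPM in the controls and 41.5 and 58.1 CPM with the mimic (log2 fold change 0.84, SE 0.17, adjusted p = 0.0471). Its call was lost without control replicate 1 (log2 fold change 0.71) and without mimic replicate 4 (0.58). Among 14 tested of 15 genes of fatty acid synthesis, the opposite pathway, 0 were called in either direction by edgeR. The median was 0.34, with 12 genes above 0. At an unadjusted p under 0.05, 6 were higher (42.9%) and 0 lower, against 11.8% and 13.0% of all genes tested. That threshold gave 12 lower (54.5%) and 2 higher (9.09%) of the other PPAR target genes. It gave 7 lower (36.8%) and 0 higher of the other peroxisomal genes, and 3 lower (17.6%) and 0 higher of the other mitochondrial genes. For the partners and cofactors it gave 5 higher (26.3%) and 1 lower (5.26%). Fitted changes of genes with few counts, such as Pdk4, Cyp4a10 and G0s2, depend on the prior count.

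**Figure D4:**
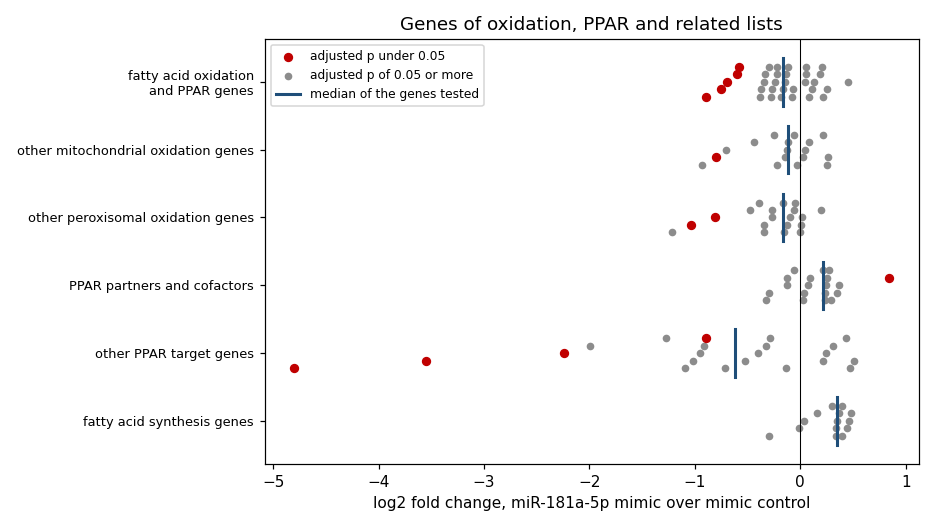
The log2 fold change (mimic over control) of every tested gene of the 33-gene list and of the related lists other than ketone body genes, with called genes in red and the median of each list as a bar. The median is -0.16 for the 33 genes, -0.62 for the other PPAR target genes and 0.34 for the genes of fatty acid synthesis.

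Markers of the cell types that could carry these genes were read beside the results. Of 20 enterocyte markers, 1 was lower (Anpep, an aminopeptidase of the brush border, log2 fold change -2.14, adjusted p = 0.00812) and 0 were higher, with a median of -0.15. Their summed level was 11482 and 13314 CPM in the controls and 12146 and 10722 CPM with the mimic, so the groups overlapped. The summed levels of the 11 stem cell markers (2263 to 2971 CPM in the controls, 2652 to 2943 CPM with the mimic) and of the 6 Paneth cell markers (656 to 859 CPM and 593 to 792 CPM) overlapped as well, with 1 lower stem cell marker (Lgr5) and 0 called Paneth markers. Median log2 fold changes were 0.13 for the stem cell list and -0.73 for the Paneth list. At an unadjusted p under 0.05, 3 Paneth markers were lower (50%, against 13.0% of all genes tested) and 0 higher. Of 8 goblet cell markers, 1 was lower and 0 were higher. The lower marker was Spink4, a secreted peptide, with 126.0 and 128.7 CPM in the controls and 78.0 and 91.4 CPM with the mimic (log2 fold change -0.59, adjusted p = 0.0353). Tff3, the trefoil factor of goblet cells, had a log2 fold change of -0.43 (adjusted p = 0.0511). Spdef, at 0.72 (adjusted p = 0.0613), and Agr2, at 0.55 (adjusted p = 0.0945), went the other way. Tff3, Spdef and Agr2 had no overlap between the groups. At an unadjusted p under 0.05, 2 goblet markers were lower and 2 higher (25% each, against 13.0% and 11.8% of all genes tested). The goblet list had a median of -0.14 and summed to 1499 and 1838 CPM in the controls and to 2007 and 1592 CPM with the mimic, so the sums overlapped. The 8 enteroendocrine markers (391 to 617 CPM and 466 to 490 CPM) and the 6 tuft cell markers (8.10 to 15.4 CPM and 10.4 to 12.2 CPM) had overlapping sums and 0 calls by edgeR. By the unadjusted threshold, 2 enteroendocrine markers were higher (25%, against 11.8% of all genes tested) and 0 lower, and 0 tuft markers were different. The enterocyte list had 3 lower (15%) and 1 higher (5%) by that threshold, and the stem cell list 2 lower (18.2%) and 1 higher (9.09%). The 8 proliferation markers summed to 2012 and 2022 CPM in the controls and to 2205 and 2055 CPM with the mimic, so these sums did not overlap. In this list 1 marker was called higher (Mcm2) and 0 lower, with a median of 0.16 and 7 markers above 0. Both mimic libraries lay above both controls in 5 of the 8 markers (62.5%, against 28.9% of all genes tested). By the unadjusted threshold 2 were higher (25%) and 0 lower. The 7 adipocyte markers summed to 9.78 and 14.1 CPM in the controls and to 4.69 and 6.43 CPM with the mimic, nearly all of it from Cidec, a lipid droplet protein. The 5 leukocyte markers summed to under 1 CPM in every library. The part of these differences in the results was not tested.

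Matches to the seed of the mimic were sought in the mRNAs of these genes. A miRNA pairs through its seed, bases 2 to 8, with matching sites in the 3′ UTR of its targets. The mature miR-181a-5p is encoded on chromosome 1 (chr1:137966468-137966490) and again on chromosome 2 (chr2:38852741-38852763) of GRCm38.p6. It is shown from RefSeq with the seed in capitals, above the only match among the 33 genes, from the 3′ UTR of Acsl1 in GENCODE release 21 (chr8:46535925-46535948 of GRCm38, plus strand), with the matching bases in capitals.
miR-181a-5p: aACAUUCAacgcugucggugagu
Acsl1 site: tgtcacaacggggtttTGAATGTt

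The letters searched were TGAATGT, on the mRNA strand, in the longest annotated 3′ UTR of each gene. The match in Acsl1 starts at base 1461 of 1571. It was the only one, which makes 1 of 33 genes (3.03%), while 2362 of 12847 tested genes with a 3′ UTR of at least 50 bases (18.4%) held a match. The 3′ UTRs of the 33 genes were shorter, with a median of 602 bases against 1165. Angptl4, Ppargc1a, Acaa1b and Eci2, the other genes that fell, held no match in theirs, of 1637, 3930, 315 and 163 bases. Shorter seed matches, other transcripts and coding sequence were not searched. Whether any of these genes is a direct target was not tested.

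PPARs bind, as dimers with RXR, a direct repeat of the hexamer AGGTCA with 1 base between the copies, AGGTCANAGGTCA. Both strands of the RefSeq promoter windows, 250 bases before to 50 after each start, were searched (GRCm38.p6), and 28 of the 33 genes had a window, 32 in all. The hexamer was in 7 of the 32 windows (21.9%) and in 16.3% of all 32851 windows. The repeat with at most 2 mismatches, which may hold a hexamer of its own, was in 3 of 32 windows (9.38%) and in 3.86% of all windows, and exact copies were in 0 and 13 windows. The 3 matches are shown because they are the windows of the list closest to the repeat, with the 13 bases of the match in capitals and positions counted from 1 at its 5′ end. Plin2 (chr4:86670272-86670284, on the strand opposite to the gene) and Echs1 (chr7:140116492-140116504, on the gene's strand) both differed from the repeat at A8G and A13C, and Slc25a20 (chr9:108662142-108662154, on the gene's strand) at C5G and A13G.
Plin2: acttAGGTCAGGGGTCCtgaa
Echs1: gctcAGGTCACGGGTCCaccc
Slc25a20: atgtAGGTGAAAGGTCGgcgg

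None of these 3 genes passed the test between the groups. The windows of Ppargc1a, Acsl1, Eci2 and Acaa1b held neither the hexamer nor the repeat, and Angptl4 had no window in the table. A match in these letters is not a binding site, and sites outside these windows were not searched.

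Some of the genes share sequence or exons with others, which bears on how reads were assigned. Of the 33 genes, 21 had no 100-base window in common with another gene, among them Ppargc1a, Acsl1 and Angptl4. Cpt1b shared 91.1% of its windows with Gm44502, an overlapping gene on the same strand with 19.9 and 28.9 expected counts in the controls and 58.0 and 0 in the mimic libraries, so its level is uncertain. Hadhb shared 52.8% with the processed pseudogene Gm13910, which had 110 to 126 expected counts per library. Exons of a gene on the opposite strand covered 42.9% of the exonic bases of Acadvl (Dvl2), 11.4% of Acaa1b (Dlec1), 9.91% of Acsl1 (Gm45244) and 3.41% of Eci2 (Gm16984), and whether the counting used strand is not given in the sources used here. Gm45244 had 142 and 92.7 expected counts in the control libraries against 51.2 and 68.4 in the mimic libraries, where Acsl1 had between 2696 and 5694.

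Levels were compared between genes in TPM only, which corrects for transcript length. In the controls the highest were Acsl5 at 451 ± 132 TPM (SD, n = 2), Ucp2 at 427 ± 15.3 TPM, Hadh at 383 ± 2.74 TPM and Hadha at 213 ± 10.6 TPM. The place of Acsl5 was not set beyond its spread, since its control libraries lay on both sides of those of Ucp2 and Hadh, while Ucp2 was above Hadh in both controls. The lowest were Ppargc1a at 10.1 ± 1.18 TPM, Ppard at 7.21 ± 0.799 TPM and Cpt1b at 2.21 ± 0.707 TPM. Of the 32 pairs of neighbours in this order, 17 did not overlap between their control libraries and the others did. With the mimic Angptl4 stood at 8.92 ± 0.396 TPM, against 15.9 ± 0.163 TPM in the controls, and Ppargc1a at 5.15 ± 0.0778 TPM.

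**Figure D5:**
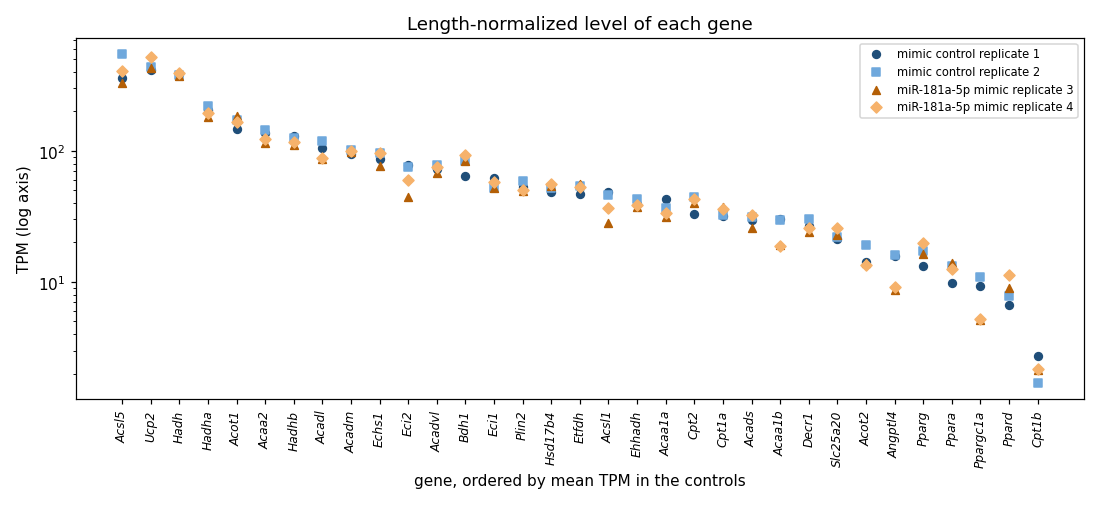
TPM of each of the 33 genes in each library on a log axis, ordered by the mean of the controls. The levels span from 451 TPM for Acsl5 to 2.21 TPM for Cpt1b, and the order of most genes is similar in all 4 libraries.

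Within pairs of isoforms, Cpt1a was between 11.7 and 18.8 times as high as Cpt1b, and Acsl5 between 7.40 and 11.9 times as high as Acsl1, over the 4 libraries in TPM. The ratio of Acaa1a to Acaa1b was 1.42 and 1.23 in the control libraries against 1.61 and 1.80 in the mimic libraries, without overlap, but it rests on the assignment of shared reads. The 33 genes summed to 2863 and 3198 TPM in the controls and to 2718 and 3004 TPM with the mimic, with overlapping groups, and to 4138 and 4552 CPM against 3903 and 3974 CPM, without overlap.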

How the data were processed

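RNA-seq libraries of mouse SI organoids with the mimic control (replicates 1 and 2) or the miR-181a-5p mimic (replicates 3 and 4) were grouped by their titles. The authors trimmed reads with Trimmomatic and quantified them with RSEM on GRCm38 (mm10), with versions not given in the sources used here, and deposited expected counts, not normalized, and TPM for each gene. Reads were single, of 100 cycles. The labels name poly(A) enrichment and the supplemental methods depletion of ribosomal RNA. Both tables hold 3 columns that matched no sample and were not used.

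After rounding of the expected counts, groups were compared in R 4.3.3 with edgeR 4.0.16 (TMM after filterByExpr, estimateDisp, glmQLFit with legacy = FALSE, glmQLFTest), with Benjamini-Hochberg adjustment over 17155 genes. Genes were called at an adjusted p under 0.05. The standard error is the size of the log2 fold change divided by the square root of F. CPM use library sizes multiplied by TMM factors. The common biological coefficient of variation was 0.13. Depth was 31104884 to 38111731 expected counts. The smallest p of an exact permutation test with 2 libraries against 2 is 0.333. The steps were tested on simulated counts.

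The members and lists were chosen with earlier results of these data known. Values per library are given for members past the threshold, the member with the largest change in each role, the PPARs, Ppargc1a, Cpt1a, and the pairs Acot1 with Acot2 and Acaa1a with Acaa1b, and for called genes of the related lists, at most 5 per list. Some results are not reported here. Acsl5, Ucp2, Apoa4 and partners in shared sequence were added after their values were seen.

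Symbols matched 55141 genes. Coordinates, 3′ UTRs and transcripts came from GENCODE release 21 and miRNA and promoter sequences from RefSeq (GRCm38.p6). The alternatives were edgeR's exact, likelihood-ratio, robust and legacy tests, DESeq2 1.42.0, RLE, upper-quartile and no factors, 2 other filters, limma 3.58.1 on log2 TPM with pseudocounts of 1 and 0.1 (at least 1 TPM in 2 libraries, or no filter), and each library left out. The legacy test and the sums of gene pairs were added after the data were seen. Plots were drawn with matplotlib 3.10.9.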

Additional observations from a re-analysis of the deposited data

How the results depend on the processing

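No paired analysis was possible because the groups share no replicate number. The median log2 fold change of the 33 genes was -0.16 and stayed below 0 in every alternative, at -0.21 with upper-quartile factors, -0.0906 in log2(TPM + 1) with or without a filter and -0.0917 in log2(TPM + 0.1), and between -0.22 and -0.11 with 1 library left out. The count of lower genes, 5, became 1 without a filter on low counts (Angptl4), where many more genes were adjusted for, 0 in each fit to TPM, and 3 to 6 with 1 library left out. The count of higher genes, 0, became 3 without control replicate 2 and was 0 to 3 over the libraries left out. At 2-fold no gene of the list passed under any alternative. The cause of these differences was not tested. When a library was left out, the lone library of its group was assumed to vary like the other group. Acsl1 also lost its call with library totals, and Acadl passed in edgeR's exact and likelihood-ratio tests.

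Over all genes the main counts of 220 higher and 392 lower genes became 761 and 1027 in the exact test, 792 and 1072 in the likelihood-ratio test, 613 and 709 in DESeq2, 67 and 125 without a filter, and 32 and 43 in log2(TPM + 1), 11 and 16 in log2(TPM + 0.1), and 2 and 0 in log2(TPM + 1) without a filter. At 2-fold the counts of 101 and 253 became 200 and 530, 214 and 559, 123 and 300, 50 and 108, 30 and 41, 11 and 16, and 2 and 0 in the same order. With 1 library left out they ran from 159 to 1152 higher and 214 to 1213 lower, and at 2-fold from 115 to 230 and 166 to 661, the most without control replicate 2 and the fewest lower genes without mimic replicate 3. The 2 libraries of a group differed by more than counting noise, and the effect of depth on the precision was not tested.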
